A study of Mus musculus with 60 samples.

Results

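The genes described here are the WNT ligands, their Frizzled receptors and 3 families of secreted modulators, in mouse C3H10T1/2 cells, a mesenchymal line that forms adipocytes under hormonal induction. They were chosen by symbol alone, as rows named Wnt, Fzd, Sfrp1 to Sfrp5, Dkk1 to Dkk4 or Rspo1 to Rspo4 in tables of 24982 genes. The rule found 41 genes, of which 19 were ligands, 10 were Frizzled receptors, 4 were Sfrp genes, 4 were Dkk genes and 4 were R-spondins. Expression was deposited as FPKM, a fragment count scaled to transcript length and library size.

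WNT proteins are secreted lipid-modified ligands that bind Frizzled receptors and LRP co-receptors at the cell surface. In the canonical branch, binding stabilises β-catenin, which then acts with TCF and LEF proteins on target genes, and this signal is known to hold mesenchymal precursors back from becoming adipocytes. R-spondins raise the signal by sparing Frizzled receptors from removal at the membrane, whereas Sfrp proteins bind the ligands and Dkk proteins bind the co-receptors and so dampen it.

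RNA was sequenced from 60 samples in 20 groups of 3, taken at days 0, 2, 4 and 6 of differentiation in medium with dexamethasone, isobutylmethylxanthine, insulin, rosiglitazone and T3 until day 2, and with insulin afterwards. A first table held Tet1-KO cells and WT cells (24 libraries), and a second held 3 populations labelled 23-CATA, 23-Tet1 and 23-NC (36 libraries), terms that the labels do not explain. The series title names TET1, an enzyme that oxidises 5-methylcytosine and so starts DNA demethylation. The labels do not say whether Tet1-KO is 1 clone, nor whether the 3 replicates of a group were separate cultures, and p-values therefore reflect the spread among libraries, which may be technical. Tet1 itself had 0.26, 0.24 and 0.25 FPKM in Tet1-KO libraries at day 0, against a mean of 1.01 ± 0.12 FPKM in WT libraries (SD, n = 3). The smallest exact two-sided permutation p that 3 against 3 allow is 0.1, which this comparison had. On the later days Tet1 was near 0 in both. It averaged 0.05 FPKM in Tet1-KO and 0.03 FPKM in WT libraries at day 2 (permutation p = 0.5). In the same order the means were 0.01 and 0.03 FPKM at day 4 (0.2), and 0.01 and 0.08 FPKM at day 6 (0.1). In 23-CATA libraries Tet1 ran from 5.75 to 21.6 FPKM and in 23-Tet1 libraries from 4.04 to 7.46 FPKM. It did not exceed 0.12 FPKM in 23-NC libraries.

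Of the 41 genes, 14 passed a filter in the first table (1 FPKM or more in no fewer than 3 libraries), and 14 passed it in the second. The 12 that passed in both tables were Wnt5a, Wnt5b, Fzd1, Fzd2, Fzd4, Fzd5, Fzd7, Fzd8, Fzd9, Sfrp1, Rspo2 and Rspo3. Sfrp2 and Wnt6 passed in the first table alone, Fzd3 and Wnt10b in the second alone, and 25 genes in neither. No Dkk gene passed, and 16 of the 19 ligands stayed below the filter in each table. Some members passed only through the groups where they are high. In the first table Sfrp2 reached 1 FPKM in the 3 WT day 0 libraries alone and Wnt5a in the WT libraries of days 0 and 6 alone, and in the second Fzd3 did so in 23-Tet1 libraries alone, Wnt5a in 23-NC libraries alone and Wnt10b in 23-CATA and 23-NC libraries of day 0 alone. Also in the second, Sfrp1 did so in 23-CATA and 23-NC libraries alone and Wnt5b in 23-CATA and 23-Tet1 libraries alone. The filter thus favoured a difference from those groups, and counts and medians over the 14 members describe those that passed, not all members. Dkk1, Fzd10, Wnt2 and Wnt3a were listed at 0 in every library of both tables. Before induction the WT cells were thus measured as rich in receptor and R-spondin RNA and poor in ligand RNA. At day 0 the 10 Frizzled genes summed to 193 ± 10.1 FPKM in WT cells, the R-spondins to 224 ± 3.22 FPKM, the Sfrp genes to 30.3 ± 1.32 FPKM and all 19 ligands to 14.1 ± 0.50 FPKM (SD, n = 3). The R-spondin sum did not stay high, and was 3.93 to 6.27 FPKM in WT libraries at day 4.

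Libraries were compared on the log2(FPKM + 1) scale with limma, a gene was called at an adjusted p under 0.05, and each change is given with its standard error after subtraction of the median over the genes tested, which is thus 0 by construction, while the test is of the change as fitted. This scale understates the changes of low genes. One library, Tet1-KO day 6 replicate 2, listed 11805 genes above 0, against 13837 to 15063 in the other 59, and its replicates correlated least (lowest Pearson r = 0.919 across genes), so the main day 6 results of Tet1-KO cells are also given without it. Adipocyte marker RNA, summed over 6 genes, ranged from 8211 to 48359 FPKM in Tet1-KO libraries at day 2, against 50051 to 65448 FPKM in WT libraries. At day 6 it ranged from 29173 to 34130 FPKM in Tet1-KO libraries, against 62767 to 67118 FPKM in WT libraries. Most of these sums was Fabp4 RNA, with 7857 to 46398 FPKM in Tet1-KO libraries at day 2 and 26850 to 32930 FPKM at day 6. Fibroblast marker RNA, summed over 6 genes, went the other way, with 2186 to 4527 FPKM in Tet1-KO libraries at day 2, against 1088 to 1337 FPKM in WT libraries. Of the markers of other cell types, Cd68 was the 1 of 4 immune genes to reach 1 FPKM (4 genes summing to at most 132 FPKM), and the 4 epithelial genes summed to at most 3.17 FPKM and the 3 endothelial genes to at most 1.10 FPKM in any library. In bulk RNA, fewer cells of a type and less RNA per cell cannot be told apart, and the part of these markers in the results on Tet1-KO cells was not tested.

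The windows around the transcription starts of 5 members are printed as examples, from the members for which a window was found. Sfrp2 and Wnt6 were lower in Tet1-KO cells before induction, and Fzd1 and Fzd7 were higher in them at days 2 and 4. Wnt5b was higher in 23-CATA cells throughout. Each runs 5′ to 3′ on the gene's strand from 250 bases before to 50 bases after the RefSeq start (GRCm38.p6), with every CG, the main site of cytosine methylation, in capitals. They lie at chr3:83766071-83766370 (plus strand), chr1:74771642-74771941 (plus), chr5:4758167-4758466 (minus), chr1:59481897-59482196 (plus) and chr6:119544298-119544597 (minus, the most upstream of the Wnt5b starts).
Sfrp2: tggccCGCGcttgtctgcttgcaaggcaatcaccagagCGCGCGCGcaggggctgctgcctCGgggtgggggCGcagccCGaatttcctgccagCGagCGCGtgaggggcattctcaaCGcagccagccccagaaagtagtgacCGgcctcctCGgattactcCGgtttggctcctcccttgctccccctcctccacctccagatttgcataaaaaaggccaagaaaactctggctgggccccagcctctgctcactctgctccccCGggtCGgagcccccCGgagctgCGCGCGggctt
Wnt6: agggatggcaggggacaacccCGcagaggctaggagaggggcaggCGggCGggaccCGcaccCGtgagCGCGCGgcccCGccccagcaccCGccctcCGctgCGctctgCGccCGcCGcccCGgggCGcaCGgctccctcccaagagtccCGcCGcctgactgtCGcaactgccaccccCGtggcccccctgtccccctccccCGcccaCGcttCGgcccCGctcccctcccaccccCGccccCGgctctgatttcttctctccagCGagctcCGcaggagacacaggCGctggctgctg
Fzd1: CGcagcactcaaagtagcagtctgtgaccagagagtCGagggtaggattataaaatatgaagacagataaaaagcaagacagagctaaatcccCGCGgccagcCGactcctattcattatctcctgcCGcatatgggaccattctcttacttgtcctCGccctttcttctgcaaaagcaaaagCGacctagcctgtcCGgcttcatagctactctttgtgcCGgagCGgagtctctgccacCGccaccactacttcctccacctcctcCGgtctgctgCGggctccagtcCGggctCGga
Fzd7: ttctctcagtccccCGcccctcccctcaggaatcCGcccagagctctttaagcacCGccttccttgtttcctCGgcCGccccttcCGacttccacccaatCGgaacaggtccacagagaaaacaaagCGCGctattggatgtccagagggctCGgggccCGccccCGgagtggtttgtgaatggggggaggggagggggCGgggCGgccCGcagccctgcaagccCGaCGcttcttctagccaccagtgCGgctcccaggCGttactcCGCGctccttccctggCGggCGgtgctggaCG
Wnt5b: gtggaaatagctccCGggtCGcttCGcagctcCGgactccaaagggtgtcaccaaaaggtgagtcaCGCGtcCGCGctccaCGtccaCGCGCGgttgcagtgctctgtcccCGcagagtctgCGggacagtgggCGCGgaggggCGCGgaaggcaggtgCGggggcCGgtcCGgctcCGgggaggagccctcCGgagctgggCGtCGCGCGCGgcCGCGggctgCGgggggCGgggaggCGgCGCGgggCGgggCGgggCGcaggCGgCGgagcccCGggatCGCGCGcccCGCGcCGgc
The windows hold 22 (Sfrp2), 31 (Wnt6), 16 (Fzd1), 24 (Fzd7) and 47 (Wnt5b) CG, whereas the median of all 32851 windows in the RefSeq table is 7. The windows of the 4 members listed at 0 in every library hold 9 (Dkk1), 45 (Fzd10), 27 (Wnt2) and 45 (Wnt3a) CG. A count above the median is thus not particular to the genes printed here. Of all windows, 23.1% hold at least as many CG as Sfrp2, 10.6% as many as Wnt6, 33.0% as many as Fzd1, 19.98% as many as Fzd7 and 1.44% as many as Wnt5b. The other Wnt5b starts differ, with 7 and 4 CG (52.1% and 68.6% of windows hold as many). The letters CTTTGA or CTTTGT, to which TCF and LEF proteins bind, occur on either strand at 2 places in the Fzd1 window, at 1 in the Fzd7 window and at none in the printed windows of Sfrp2, Wnt6 and Wnt5b (the Wnt5b window with 7 CG holds 1), and 31.2% of all windows hold at least 1. A match is a description of the letters, and methylation was not analysed here. RefSeq windows were found for 27 of the 41 genes, and none for Rspo2, Rspo3, Sfrp1, Wnt5a, Fzd2 or Fzd8. Fzd4, Fzd5 and Fzd9, called in Tet1-KO against WT cells before induction, have windows that are not printed.

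Before induction, 9 of the 14 members tested differed between Tet1-KO and WT cells, 8 of them lower and 1 higher, with a median change of −0.84, where 16.8% of all genes tested were called (11% lower and 5.83% higher). The members that were lower in Tet1-KO cells took in both Sfrp antagonists, the 3 ligands tested and the receptors Fzd2, Fzd4 and Fzd9, and the 1 that was higher was the receptor Fzd5. Without Tet1-KO day 0 replicate 1 the count was 5.

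Sfrp2, a secreted antagonist of WNT ligands on chromosome 3 (83766321 to 83774316), was all but absent from Tet1-KO cells. It had 0.15, 0.03 and 0.07 FPKM in Tet1-KO libraries at day 0, against 19.3, 19.4 and 18.4 FPKM in WT libraries. No library of one group came near the other, and the change was −4.12 ± 0.11, given as a description because the gene passed the filter through the WT day 0 libraries alone. In WT cells Sfrp2 had already fallen to 0.10, 0.11 and 0.10 FPKM at day 2, when it was listed at 0 in all 3 Tet1-KO libraries. At day 6 it had 0, 0 and 0.21 FPKM in Tet1-KO libraries, against 0.68, 0.29 and 0.51 FPKM in WT libraries, a change of −0.28 ± 0.11 (adjusted p = 0.0016) that was −0.43 without Tet1-KO day 6 replicate 2 and −0.15 without replicate 1, and was not called with the compared groups alone (adjusted p = 0.13). The gene overlaps the antisense gene Gm26771 by 464 bases, and whether reads were counted by strand is not given in the sources used here.

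Sfrp1, a second antagonist of this family, differed between Tet1-KO and WT cells in opposite directions at day 0 and day 6. At day 0 it had 3.30, 3.44 and 4.12 FPKM in Tet1-KO libraries, against 9.76, 12.3 and 11.6 FPKM in WT libraries (change −1.31 ± 0.44, adjusted p = 0.035). At day 6 it had 7.69, 3.45 and 3.66 FPKM in Tet1-KO libraries, against 1.25, 0.70 and 1.37 FPKM in WT libraries (change 1.63 ± 0.44, adjusted p = 0.013). The groups did not overlap at either day, with WT the higher at day 0 and Tet1-KO the higher at day 6. The difference between the changes from day 0 to day 6 was itself called (2.93 ± 0.62, adjusted p = 0.0041). The day 0 call was lost with a pseudocount of 0.1 FPKM (adjusted p = 0.10), with no filter (0.051) and without any 1 of 5 of the 6 libraries (adjusted p = 0.059 to 0.11), and the day 6 call without Tet1-KO day 6 replicate 1 (0.058).

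The ligands that passed the filter were low and were lower still in Tet1-KO cells at day 0. Wnt5a is a ligand best known for signalling without β-catenin. It had 0.25, 0.26 and 0.24 FPKM in Tet1-KO libraries, against 3.11, 3.23 and 3.31 FPKM in WT libraries. It was also lower at day 6, with 0.30, 0 and 0.89 FPKM in Tet1-KO libraries, against 1.47, 1.19 and 1.43 FPKM in WT libraries. The changes were −1.66 ± 0.15 at day 0 and −0.61 ± 0.15 at day 6. They are given as a description, because the gene passed the filter through WT libraries alone. With the compared groups alone the day 6 change was not called (adjusted p = 0.095). Wnt5a lies on chromosome 14 and overlaps the antisense gene Gm2670 by 3319 bases.

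Wnt6, a ligand that holds back adipogenesis in mesenchymal precursors, had 2.34, 1.35 and 2.24 FPKM in Tet1-KO libraries at day 0, against 6.97, 7.49 and 6.96 FPKM in WT libraries (change −1.38 ± 0.35, adjusted p = 0.0071). Its neighbour 6193 bases downstream on chromosome 1, the ligand gene Wnt10a, did not pass the filter in either table. Wnt5b, a close relative of Wnt5a, had 1.00, 1.25 and 1.23 FPKM in Tet1-KO libraries, against 2.54, 2.81 and 2.45 FPKM in WT libraries (change −0.65 ± 0.20, adjusted p = 0.015). With a pseudocount of 0.1 FPKM the calls of Wnt6 (adjusted p = 0.070) and Wnt5b (0.23) were lost, and that of Wnt5b also without Tet1-KO day 0 replicate 1 (0.071) or WT day 0 replicate 2 (0.067).

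Among the receptors at day 0, Fzd9 had 1.63, 2.27 and 2.38 FPKM in Tet1-KO libraries, against 7.37, 8.42 and 7.75 FPKM in WT libraries (change −1.43 ± 0.16, adjusted p = 1.3e-06). Fzd2, the most abundant Frizzled gene of WT cells, had 29.3, 34.2 and 49.1 FPKM in Tet1-KO libraries, against 76.3, 85.5 and 82.1 FPKM in WT libraries (change −1.04 ± 0.32, adjusted p = 0.021). Fzd4, also a receptor for the non-WNT ligand norrin, had 1.68, 2.41 and 4.70 FPKM in Tet1-KO libraries, against 6.49, 7.67 and 7.75 FPKM in WT libraries (change −1.06 ± 0.27, adjusted p = 0.0064). The groups did not overlap for any of these 3 receptors. Fzd5 stood the other way, with 6.04, 5.10 and 7.47 FPKM in Tet1-KO libraries, against 2.51, 3.20 and 3.10 FPKM in WT libraries (change 0.95 ± 0.20, adjusted p = 0.0068). Fzd1, Fzd7 and Fzd8 did not pass the test at day 0 (changes 0.01 ± 0.27, 0.37 ± 0.43 and −0.35 ± 0.23). The Fzd2 call was lost without any 1 of Tet1-KO replicates 1 and 2 and WT replicates 2 and 3 (adjusted p = 0.071 to 0.11), and the Fzd4 call without Tet1-KO replicate 1 (0.054).

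**Figure D1:**
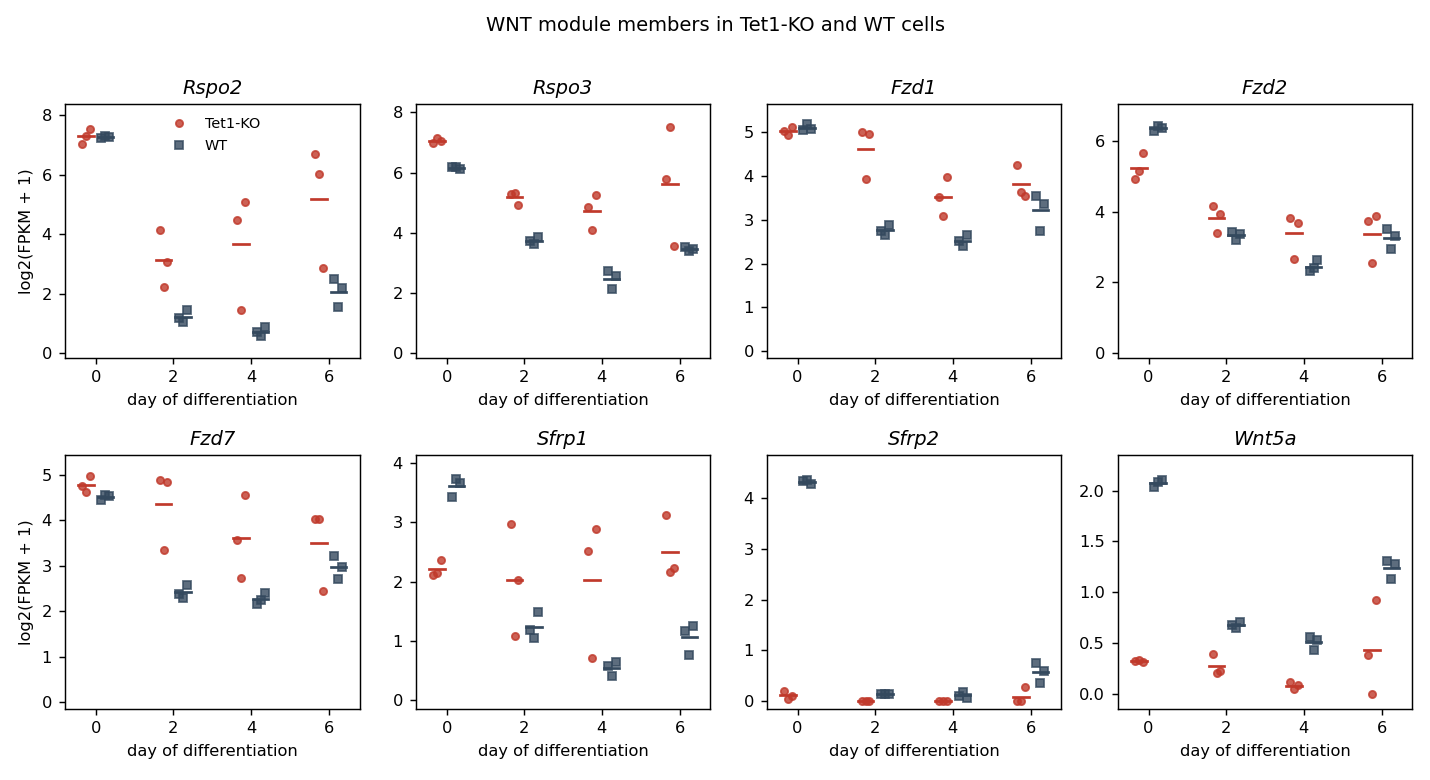
Expression of 8 members in single libraries of Tet1-KO cells (circles) and WT cells (squares) by day of differentiation, on a log2(FPKM + 1) axis, with the mean of 3 libraries as a bar. Sfrp2 and Wnt5a sit low in all Tet1-KO libraries at day 0, Rspo2 and Rspo3 lie higher in Tet1-KO than in WT libraries from day 2 on, and Tet1-KO libraries of 1 day spread widely from day 2 on.

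After induction the members that passed the filter were lower in WT cells. All 14 fell by day 2 against day 0 (median change −1.87), where 62.1% of all genes tested were called and 43.2% were lower. All 14 were lower at day 6 as well (median −1.77), where 56.6% of all genes were called and 37.4% were lower. The summed Frizzled RNA of WT cells was 193 FPKM at day 0, 27.4 ± 2.32 FPKM at day 2, 24.4 ± 3.28 FPKM at day 4 and 35.9 ± 8.47 FPKM at day 6. In Tet1-KO cells it was 136 ± 24.6, 76.9 ± 27.4, 46.6 ± 16.8 and 46.5 ± 12.4 FPKM on the same days (SD, n = 3).

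The steepest fall in WT cells was that of Rspo2 on chromosome 15, an R-spondin that amplifies WNT signalling. It had 1.3, 1.1 and 1.7 FPKM at day 2, against 149, 156 and 153 FPKM at day 0 (change −5.65 ± 0.80, adjusted p = 3.0e-06). Rspo3, its relative on chromosome 10, had 12.4, 11.5 and 13.5 FPKM at day 2, against 72.5, 71.7 and 69.1 FPKM at day 0 (change −2.03 ± 0.56, adjusted p = 0.00094). Fzd2 fell by 2.65 ± 0.32 on the log2 scale (adjusted p = 2.2e-07) and Fzd8 by 2.38 ± 0.23 (1.2e-08). The change of Sfrp2 was −3.79 ± 0.11, from the day 0 libraries through which it had passed the filter. The smallest fall by day 2 was that of Wnt5b (−0.67 ± 0.20, adjusted p = 0.00012). At day 6 the smallest was that of Fzd5 (−0.28 ± 0.20, adjusted p = 0.023), whose call was lost without WT day 0 replicate 2 (0.072) or 3 (0.065) or WT day 6 replicate 1 (0.059), with quantile normalisation (0.61) and with median-ratio scaling (0.12). The Wnt5a call at day 6 (change −0.55 ± 0.15, adjusted p = 0.00012) was lost with a pseudocount of 0.1 FPKM (0.054).

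In Tet1-KO cells, 7 of the 14 members fell by day 2, where 22.5% of all genes tested were called (14.8% lower and 7.72% higher), and 9 were lower at day 6, where 45.6% of all genes were called (36% lower and 9.55% higher). No member rose on either day. Rspo2 had 16.6, 3.64 and 7.46 FPKM at day 2, against 128, 156 and 184 FPKM at day 0 (change −4.03 ± 0.80, adjusted p = 0.0011). At day 6 it had 102, 63.9 and 6.21 FPKM, a change from day 0 of −1.71 ± 0.80 (adjusted p = 0.0395). The day 6 libraries lay far apart, and the change was −0.46 without replicate 3 (adjusted p = 0.26) and −2.33 without replicate 2 (0.030). The day 6 call of Rspo3 rested on the same library, being 0.07 without it (adjusted p = 0.35), and without Tet1-KO day 6 replicate 2 it was −2.19 (0.00029). The day 2 call of Rspo3 (−1.78 ± 0.56, 0.0208) was lost without any 1 of 5 of the 6 libraries (adjusted p = 0.0504 to 0.0604). With the compared groups alone 1 member was called at day 6. The day 6 count was 5 when Tet1-KO day 0 replicate 3 was left out and 9 when Tet1-KO day 6 replicate 2 was.

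The difference between the populations in the change from day 0 to day 6 was called for 4 members, all in the positive direction, where 17.8% of all genes tested were called (7.16% higher). These were Sfrp2, Sfrp1, Fzd9 and Wnt5a, each already lower in Tet1-KO cells at day 0. Sfrp2 and Wnt5a averaged 0.08 and 0.25 FPKM in Tet1-KO cells at day 0, so they had little room to fall there. Both had passed the filter through WT libraries alone, so the filter favoured their differences, which are given as a description. Rspo2 (3.19 ± 1.13, adjusted p = 0.063) and Rspo3 (1.38 ± 0.79, adjusted p = 0.27) did not pass this test. The Wnt5a difference (1.04 ± 0.21) was not called with a pseudocount of 0.1 FPKM (adjusted p = 0.28). Without Tet1-KO day 6 replicate 2 the count was 7, and the differences were 3.70 for Sfrp2, 2.93 for Sfrp1, 1.32 for Fzd9, 1.08 for Wnt5a, 2.6 for Rspo2 (adjusted p = 0.10) and 0.25 for Rspo3 (0.68).

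Some receptors were higher in Tet1-KO than in WT cells at days 2 and 4, and both R-spondins at days 4 and 6. Rspo3 had 126, 142 and 131 FPKM in Tet1-KO libraries already at day 0, against 72.5, 71.7 and 69.1 FPKM in WT libraries. These groups did not overlap, but the change of 0.98 ± 0.56 did not pass the test (adjusted p = 0.29), whereas it did with the compared groups alone (0.00029) and with library weights (3.9e-06). At day 2, 4 of the 14 members were called, all higher, where 22.9% of all genes tested were called (16.2% higher and 6.76% lower). All 4 were Frizzled receptors, and Rspo2 (1.76 ± 0.80, adjusted p = 0.088) and Rspo3 (1.27 ± 0.56, 0.069) did not pass. Fzd1, on chromosome 5, had 30.9, 14.2 and 29.9 FPKM in Tet1-KO libraries, against 5.71, 5.26 and 6.40 FPKM in WT libraries (change 1.70 ± 0.27, adjusted p = 0.00025). Fzd7 had 28.8, 9.15 and 27.9 FPKM in Tet1-KO libraries, against 4.23, 3.87 and 5.00 FPKM in WT libraries (change 1.78 ± 0.43, adjusted p = 0.0045). Both groups were apart for each receptor, with Tet1-KO replicate 2 the nearest to WT. Fzd8 had 13.9, 8.74 and 11.01 FPKM in Tet1-KO libraries, against 4.08, 4.78 and 5.60 FPKM in WT libraries (change 0.89 ± 0.23, adjusted p = 0.0038). Fzd5 had 1.97, 1.26 and 2.50 FPKM in Tet1-KO libraries, against 0.56, 0.59 and 0.72 FPKM in WT libraries (change 0.66 ± 0.20, adjusted p = 0.0080), a call that was lost without Tet1-KO day 2 replicate 3 (0.054) and with quantile normalisation (0.079).

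At day 4, 5 members were called, all higher in Tet1-KO cells, where 16% of all genes tested were called (9.79% higher and 6.22% lower). They were Rspo2 (2.85 ± 0.80, adjusted p = 0.018), Rspo3 (2.17 ± 0.56, 0.011), Sfrp1 (1.41 ± 0.44, 0.026), Fzd7 (1.26 ± 0.43, 0.040) and Fzd1 (0.91 ± 0.27, 0.017). Rspo2 had 21.2, 1.74 and 32.5 FPKM in Tet1-KO libraries, against 0.65, 0.49 and 0.85 FPKM in WT libraries. Rspo3 had 28.3, 15.9 and 37.1 FPKM in Tet1-KO libraries, against 5.62, 3.44 and 4.90 FPKM in WT libraries. Replicate 2 was the lowest Tet1-KO library for both, and it still lay above every WT library. None of these 5 calls held without Tet1-KO day 4 replicate 1 (adjusted p = 0.053 to 0.14), without replicate 3 (0.077 to 0.28) or without WT day 4 replicate 2 (0.053 to 0.11), and 1 was left without WT day 4 replicate 1 and 3 without WT day 4 replicate 3. Without Tet1-KO replicate 3 the Fzd7 change was 0.83. With the compared groups alone, Rspo3 was the 1 member still called.

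At day 6, 5 members were called, 3 higher and 2 lower in Tet1-KO cells, where 45.4% of all genes tested were called (15.7% higher and 29.7% lower). Rspo2 had 102, 63.9 and 6.21 FPKM in Tet1-KO libraries, against 4.57, 1.92 and 3.59 FPKM in WT libraries (change 3.31 ± 0.80, adjusted p = 0.0042). Rspo3 had 54.6, 184 and 10.9 FPKM in Tet1-KO libraries, against 10.6, 9.49 and 9.98 FPKM in WT libraries (change 2.37 ± 0.56, adjusted p = 0.0043). The Tet1-KO libraries lay above the WT libraries for both genes with replicate 3 the nearest to them, and spread widely. Without Tet1-KO day 6 replicate 2 the changes were 2.70 for Rspo2 (adjusted p = 0.020) and 1.23 for Rspo3 (0.020), and with the compared groups alone neither was called (0.084 and 0.16). No receptor was called at day 6, when Fzd1 (0.79 ± 0.27, adjusted p = 0.080) and Fzd7 (0.73 ± 0.43, 0.33) overlapped between the groups. The third called higher was Sfrp1, and the pair called lower were Sfrp2 and Wnt5a. The count was 5 without Tet1-KO day 6 replicate 2 and 9 without replicate 3, when the Rspo3 change was 3.49. Without replicate 2 the changes were 1.61 for Sfrp1 (adjusted p = 0.0133) and −0.59 for Wnt5a, which is given as a description.

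Tet1-KO libraries of 1 day differed in these genes and in adipocyte markers together. At day 2 Fabp4, a fatty acid carrier of adipocytes, had 7857, 46398 and 9990 FPKM in replicates 1, 2 and 3, and the library with the most Fabp4 had the least Fzd1, Fzd7, Rspo2 and Sfrp1 RNA but the most Rspo3 RNA (37.8, 39.5 and 29.5 FPKM in replicates 1, 2 and 3). At day 4 Adipoq, the adipocyte hormone adiponectin, had 1362, 3331 and 901 FPKM in these replicates, and again replicate 2 had the least Rspo2, Rspo3, Sfrp1, Fzd1 and Fzd7 RNA. At day 6 these markers ranked the replicates differently, with Fabp4 at 26850, 32930 and 27054 FPKM and Adipoq at 1917, 593 and 950 FPKM. No such order was seen for Rspo2 and Rspo3, which were lowest in replicate 3. Sfrp1 was lowest in replicate 2 (3.45 FPKM, against 3.66 FPKM in replicate 3). The part of these markers in the differences between Tet1-KO and WT cells was not tested.

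**Figure D2:**
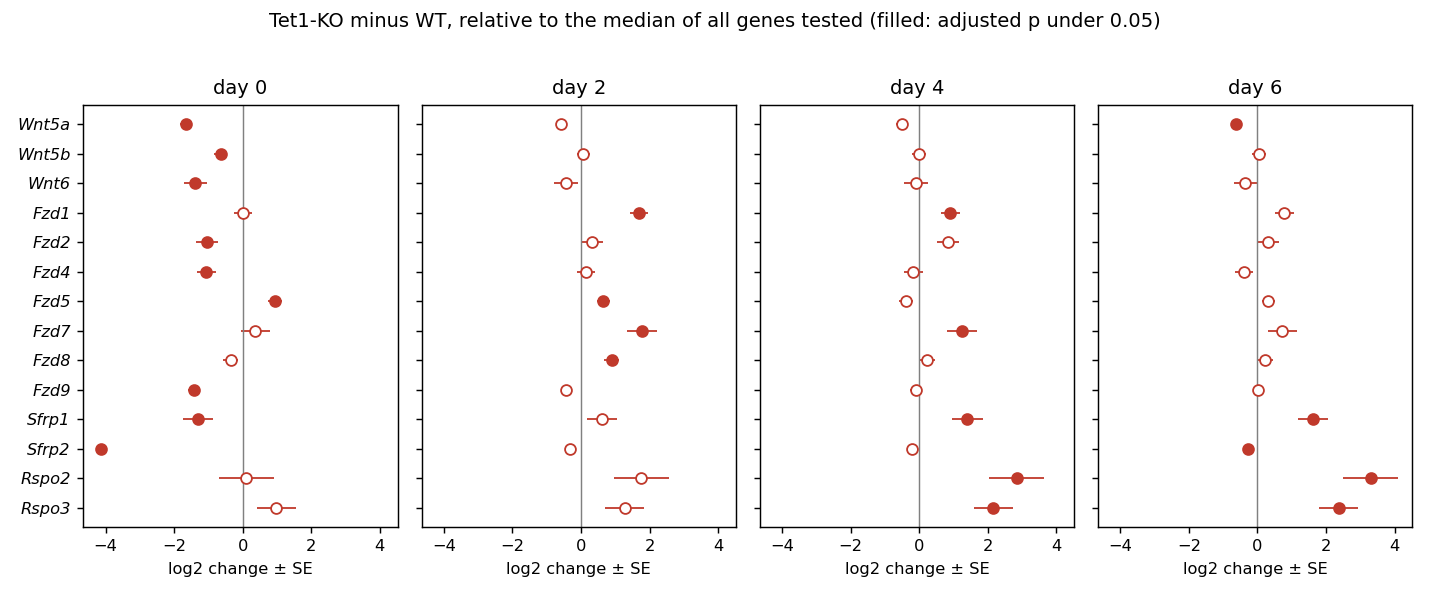
Change in Tet1-KO cells against WT cells for the 14 members tested in the first table, by day, as log2 change of FPKM + 1 ± SE, with the median over genes tested set to 0 and filled circles for adjusted p under 0.05. At day 0 the called members lie to the left apart from Fzd5, and at days 2 and 4 all called members lie to the right.

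Other genes of the pathway were counted in 3 lists. Of 12 tested genes for WNT secretion and co-receptors, 3 were lower and none higher in Tet1-KO cells at day 0, 4 higher and none lower at day 2, 2 higher and none lower at day 4, and 1 higher (Ryk) and 3 lower (Porcn, Lgr4 and Kremen1) at day 6. Over all genes tested, 16.8%, 22.9%, 16% and 45.4% were called on these days. Among those higher at day 2 was Wls, which carries WNT proteins to the cell surface (59.9 FPKM on average in Tet1-KO cells and 19.5 in WT cells at day 2, change 1.35, adjusted p = 0.0016). Of 26 tested genes for intracellular signalling, 6 were lower and none higher at day 0, 6 higher and none lower at day 2, 1 higher and 3 lower at day 4, and 1 higher and 7 lower at day 6. Those of day 0 included the transcription factor Tcf7l2 (18.7 FPKM in Tet1-KO cells and 38.5 in WT cells, change −0.93, adjusted p = 0.0093), and those of day 2 included β-catenin itself, Ctnnb1 (135 FPKM in Tet1-KO cells and 61.6 in WT cells, change 0.91, adjusted p = 0.0019). Of 12 tested target and feedback genes, none was called at day 0, 4 were higher and 1 lower at day 2, 5 higher and none lower at day 4, and 5 higher and 2 lower at day 6, the day on which 45.4% of all genes were called. Wisp1, a matricellular gene known as a WNT target, was among those higher at all 3 later days. At day 2 it averaged 9.0 ± 6.13 FPKM in Tet1-KO cells and 0.51 ± 0.33 FPKM in WT cells (SD, change 2.30, adjusted p = 0.0058). Ccnd1, the cell cycle gene cyclin D1, was higher at day 6. It averaged 54.8 ± 22.4 FPKM in Tet1-KO cells and 5.92 ± 2.66 FPKM in WT cells (SD, change 3.20, adjusted p = 0.0055). Apcdd1, a membrane inhibitor of WNT signalling, was lower at day 6. Its means were 7.12 ± 2.78 FPKM in Tet1-KO cells and 37.2 ± 8.98 FPKM in WT cells (SD, change −2.07, adjusted p = 7.2e-05). The results of these lists are not given without Tet1-KO day 6 replicate 2 or under other settings.

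In the second table replicates lay close together (lowest r = 0.993) and 43.3% to 77.6% of all genes tested were called in each comparison, so a share of members called near these values is not a result about the members. The values of single members are given for that reason. Both 23-CATA and 23-Tet1 cells were compared with the same 23-NC libraries. Adipocyte marker RNA differed between the populations from the start, with 2321 to 2473 FPKM in 23-CATA libraries, 5.19 to 20.04 FPKM in 23-Tet1 libraries and 33.0 to 34.6 FPKM in 23-NC libraries at day 0, and with 54215 to 55576, 49839 to 57720 and 10443 to 11832 FPKM at day 6. The part of these markers in the results on this table was not tested.

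Wnt5b was the member that set 23-CATA cells apart on every day. It had 2.16, 2.32 and 3.13 FPKM in 23-CATA libraries at day 0, 0.03, 0.03 and 0 FPKM in 23-Tet1 libraries and 0.22, 0.17 and 0.23 FPKM in 23-NC libraries. At day 2 it had 4.99, 4.65 and 4.77 FPKM in 23-CATA libraries, 1.02, 0.74 and 0.70 FPKM in 23-Tet1 libraries and 0.19, 0.14 and 0.15 FPKM in 23-NC libraries. No 23-CATA library overlapped either other population on any day. The change in 23-CATA against 23-NC cells was 1.43 ± 0.09 at day 0, 2.30 ± 0.09 at day 2, 2.02 ± 0.09 at day 4 and 1.92 ± 0.09 at day 6. In 23-CATA against 23-Tet1 cells it was 1.78, 1.73, 1.37 and 1.62, each ± 0.09, on these days. In 23-Tet1 against 23-NC cells it was 0.55 ± 0.09 at day 2 and 0.65 ± 0.09 at day 4. The changes against 23-NC cells are given as a description, because the gene passed the filter through 23-CATA and 23-Tet1 libraries alone. Wnt5b, on chromosome 6, overlaps the protein-coding gene Fbxl14 on the other strand by 2963 bases, and reads from such a pair cannot be told apart without strand. Fbxl14 averaged 6.28 ± 0.24 FPKM in 23-CATA cells and 6.32 ± 0.13 FPKM in 23-NC cells at day 0, and 10.5 ± 0.23 and 5.05 ± 0.49 FPKM in the same order at day 2. It averaged 7.44 ± 0.31 and 8.75 ± 0.14 FPKM at day 4, and 8.21 ± 0.12 and 5.23 ± 0.41 FPKM at day 6. In 23-Tet1 cells it averaged 9.20 ± 0.40, 7.69 ± 1.00, 10.07 ± 0.89 and 7.12 ± 0.20 FPKM at days 0, 2, 4 and 6. The part of Fbxl14 reads in the Wnt5b values was not tested.

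Rspo2 again fell after induction, at a different pace in each population. In 23-CATA libraries it had 146, 147 and 146 FPKM at day 0, 7.23, 7.21 and 7.33 FPKM at day 2, 5.26, 5.73 and 5.11 FPKM at day 4, and 29.0, 28.8 and 28.4 FPKM at day 6. In 23-Tet1 libraries it had 77.0, 78.2 and 80.1 FPKM at day 0, 41.1, 38.2 and 42.2 FPKM at day 2, 20.6, 19.2 and 22.3 FPKM at day 4, and 4.26, 4.06 and 3.79 FPKM at day 6. In 23-NC libraries it had 179, 187 and 189 FPKM at day 0, 16.2, 16.9 and 17.0 FPKM at day 2, 6.21, 6.00 and 5.30 FPKM at day 4, and 6.73, 6.97 and 5.35 FPKM at day 6. At day 6, then, 23-CATA libraries were the highest and 23-Tet1 libraries the lowest, with no overlap. The change in 23-CATA against 23-NC cells was −0.45 ± 0.07 at day 0 (adjusted p = 0.00012), −1.13 ± 0.07 at day 2 (7.6e-15) and 2.01 ± 0.07 at day 6 (2.0e-21), and at day 4 it did not pass (−0.02 ± 0.07, 0.17). In 23-Tet1 against 23-NC cells it was −1.32 ± 0.07 at day 0 (9.3e-16), 1.13 ± 0.07 at day 2 (7.7e-16), 1.58 ± 0.07 at day 4 (1.2e-18) and −0.59 ± 0.07 at day 6 (3.4e-08). The order of these populations in Rspo2 thus turned round more than once over the course.

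Rspo3 and Sfrp1 were both low in 23-Tet1 cells before induction. Rspo3 had 29.5, 28.8 and 29.2 FPKM in 23-CATA libraries at day 0, 6.08, 6.57 and 7.24 FPKM in 23-Tet1 libraries and 29.1, 29.3 and 29.7 FPKM in 23-NC libraries. Its change in 23-Tet1 against 23-NC cells was −2.09 ± 0.08 at day 0 (adjusted p = 1.4e-18) and stayed below 0 at day 2 (−1.16 ± 0.08), day 4 (−1.70 ± 0.08) and day 6 (−0.75 ± 0.08), each called. Sfrp1 had 6.16, 6.60 and 6.81 FPKM in 23-CATA libraries at day 0, 0.35, 0.24 and 0.20 FPKM in 23-Tet1 libraries and 4.50, 5.07 and 5.93 FPKM in 23-NC libraries. Its change in 23-Tet1 against 23-NC cells was −2.38 ± 0.09 at day 0, −1.46 ± 0.09 at day 2, −0.76 ± 0.09 at day 4 and −0.34 ± 0.09 at day 6. These changes are given as a description, because the gene passed the filter through 23-CATA and 23-NC libraries alone. By day 6 it was at most 0.43 FPKM in any library of the second table.

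**Figure D3:**
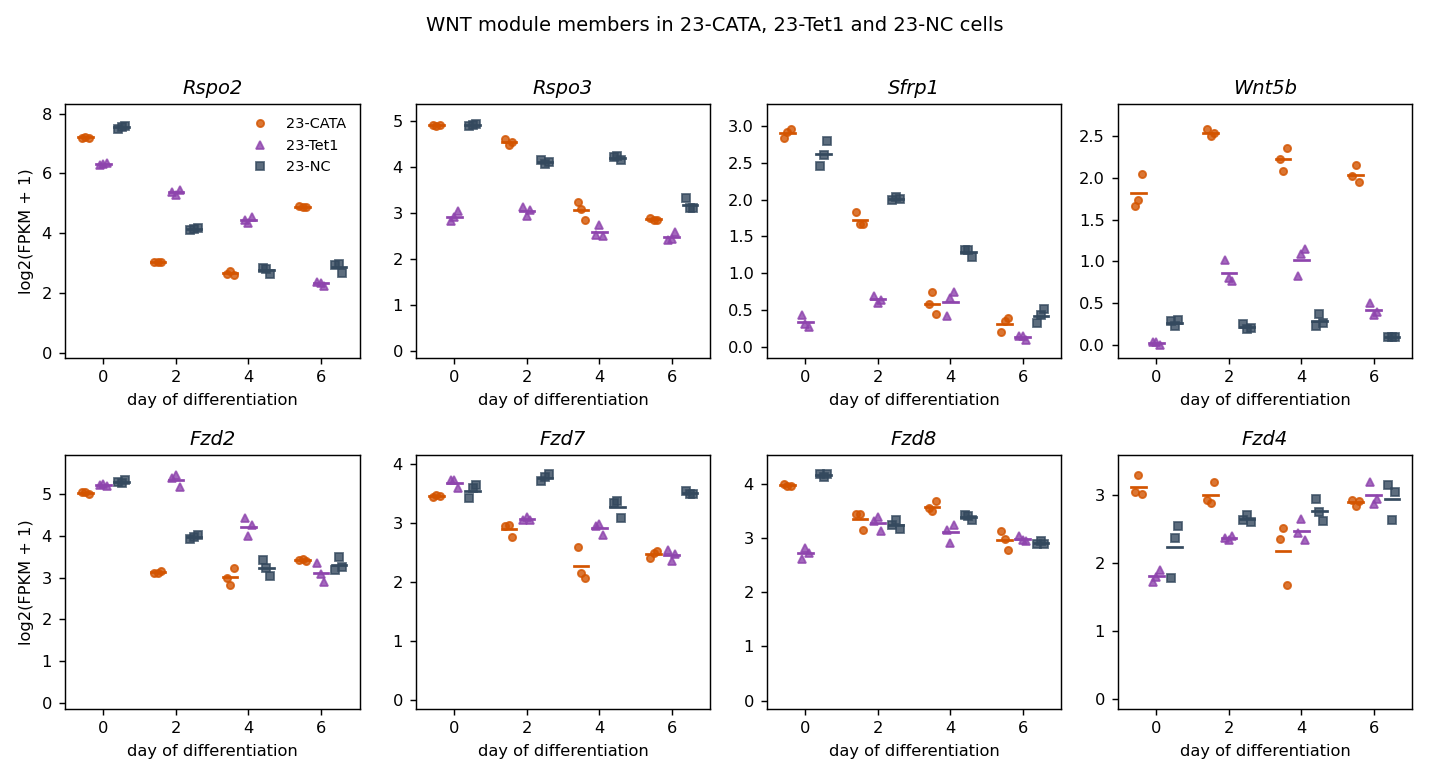
Expression of 8 members in single libraries of 23-CATA (circles), 23-Tet1 (triangles) and 23-NC cells (squares) by day of differentiation, on a log2(FPKM + 1) axis, with the mean of 3 libraries as a bar. Wnt5b is highest in 23-CATA libraries on every day, Sfrp1 and Rspo3 are lowest in 23-Tet1 libraries at day 0, and Fzd7 is highest in 23-NC libraries from day 2 on.

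The receptors differed by population and day. Fzd2 had 7.69, 7.70 and 7.91 FPKM in 23-CATA libraries at day 2, 41.0, 43.3 and 35.4 FPKM in 23-Tet1 libraries and 14.2, 14.8 and 15.3 FPKM in 23-NC libraries. The 23-Tet1 libraries were the highest and the 23-CATA libraries the lowest, with no overlap. The day 2 change was −0.87 ± 0.11 in 23-CATA against 23-NC cells (adjusted p = 6.6e-08), 1.28 ± 0.11 in 23-Tet1 against 23-NC cells (4.3e-12) and −2.16 ± 0.11 in 23-CATA against 23-Tet1 cells (3.3e-17). In 23-Tet1 cells Fzd2 had not fallen by day 2 against day 0 (change 0.16 ± 0.11, adjusted p = 0.35) and was lower at day 6 (−2.0 ± 0.11, 3.9e-17).

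Fzd7, a receptor often used by canonical ligands, was lower in both other populations than in 23-NC cells once differentiation had begun. At day 6 it had 4.30, 4.67 and 4.75 FPKM in 23-CATA libraries, 4.83, 4.11 and 4.54 FPKM in 23-Tet1 libraries and 10.7, 10.2 and 10.3 FPKM in 23-NC libraries. The change against 23-NC cells was −1.05 ± 0.10 in 23-CATA cells (adjusted p = 6.2e-11) and −1.11 ± 0.10 in 23-Tet1 cells (7.1e-11). The difference between 23-CATA and 23-Tet1 cells did not pass the test (0.03 ± 0.10, adjusted p = 0.85). In 23-NC cells Fzd7 did not fall by day 6 (0.03 ± 0.10, adjusted p = 0.71).

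Fzd8 had 14.9, 14.5 and 14.5 FPKM in 23-CATA libraries at day 0, 5.13, 6.07 and 5.59 FPKM in 23-Tet1 libraries and 17.1, 16.5 and 17.2 FPKM in 23-NC libraries. The change in 23-Tet1 against 23-NC cells was −1.54 ± 0.09 (adjusted p = 2.1e-14), and at day 6 it did not pass (0.03 ± 0.09, 0.47). Fzd9 was also low in 23-Tet1 cells at day 0, with 2.10, 1.89 and 2.02 FPKM in 23-CATA libraries, 0.12, 0.60 and 0.54 FPKM in 23-Tet1 libraries and 2.47, 1.89 and 1.39 FPKM in 23-NC libraries (change in 23-Tet1 against 23-NC cells −1.14 ± 0.14, adjusted p = 3.1e-07). Fzd4 was higher in 23-CATA cells at day 0, with 7.26, 8.87 and 7.11 FPKM in 23-CATA libraries, 2.30, 2.46 and 2.73 FPKM in 23-Tet1 libraries and 2.43, 4.17 and 4.86 FPKM in 23-NC libraries (change in 23-CATA against 23-NC cells 0.78 ± 0.17, adjusted p = 8.9e-05). Fzd3, which takes part in planar cell polarity, reached 1.01 to 1.08 FPKM in 23-Tet1 libraries at day 4 and at most 0.58 FPKM in any 23-CATA or 23-NC library of any day, with a change in 23-Tet1 against 23-NC cells of 0.77 ± 0.06 at day 6, given as a description because the gene passed the filter through 23-Tet1 libraries alone.

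Of the other ligands, Wnt5a was lower than in 23-NC cells on all 4 days in both populations, with day 0 values of 0.69, 0.88 and 0.86 FPKM in 23-CATA libraries, 0.52, 0.77 and 0.68 FPKM in 23-Tet1 libraries and 1.44, 1.43 and 1.5 FPKM in 23-NC libraries. The day 0 changes against 23-NC cells were −0.55 ± 0.09 in 23-CATA cells and −0.67 ± 0.09 in 23-Tet1 cells. They are given as a description, because the gene passed the filter through 23-NC libraries alone. The day 4 call in 23-Tet1 cells (−0.36 ± 0.09, adjusted p = 0.0095) was lost without 23-NC day 4 replicate 2 (0.061) or 23-Tet1 day 4 replicate 3 (0.070) and with the compared groups alone (0.058). Wnt10b, a canonical ligand known to block adipogenesis, had 1.92, 1.84 and 2.03 FPKM in 23-CATA libraries at day 0, 0.73, 0.75 and 0.70 FPKM in 23-Tet1 libraries and 1.13, 0.92 and 1.03 FPKM in 23-NC libraries. It was higher in 23-CATA than in 23-NC cells at day 0 alone of the 4 days (0.42 ± 0.10, a call lost with quantile normalisation, adjusted p = 0.051). It was lower at day 6 than at day 0 in 23-CATA cells (−0.94 ± 0.10), 23-Tet1 cells (−0.35 ± 0.10) and 23-NC cells (−0.55 ± 0.10). These changes are given as a description, because the gene passed the filter through 23-CATA and 23-NC libraries of day 0 alone.

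Counted over the 14 members tested, 7 were called in 23-CATA against 23-NC cells at day 0 (4 higher and 3 lower), where 43.3% of all genes tested were called (31.6% higher and 11.7% lower). At day 2 it was 9 (4 higher and 5 lower), where 65% were called (34.3% higher and 30.7% lower). At day 4 it was 8 (1 higher and 7 lower), where 68.7% were called (28.9% higher and 39.9% lower), and at day 6 it was 6 (2 higher and 4 lower), where 74.4% were called (38% higher and 36.4% lower). In 23-Tet1 against 23-NC cells, 11 members were called at day 0 (1 higher and 10 lower, median change −0.61), where 61.3% of all genes were called (37.8% higher and 23.5% lower). The day 0 calls of Fzd4 (adjusted p = 0.0306) and Wnt5b (0.023) were lost without single libraries (adjusted p up to 0.205 and 0.0627). At day 2 it was 11 again (7 higher and 4 lower), where 63.9% were called (38.7% higher and 25.2% lower). At day 4 it was 11 (6 higher and 5 lower), where 56.9% were called (35% higher and 21.9% lower), and at day 6 it was 8 (2 higher and 6 lower), where 65% were called (36% higher and 29% lower). In 23-CATA against 23-Tet1 cells, 12, 8, 10 and 8 members were called on these days, where 64.2%, 67.4%, 74.2% and 65.7% of all genes were called, and 10 of the 12 at day 0 were higher in 23-CATA cells (32.9% of all genes were).

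Against day 0, 12 of the 14 members were called in 23-CATA cells at day 6 (11 lower), where 77% of all genes tested were called (49.7% lower). In 23-Tet1 cells all 14 were called (8 lower and 6 higher), where 77.6% of all genes were called. In 23-NC cells 10 were called (9 lower and 1 higher), where 72.2% of all genes were called (40.5% lower). Summed Frizzled RNA was 87.6 ± 1.89 FPKM at day 0 and 38.1 ± 0.64 FPKM at day 6 in 23-CATA cells, 71.9 ± 2.03 and 38.1 ± 3.39 FPKM on these days in 23-Tet1 cells, and 93.8 ± 4.77 and 44.7 ± 1.44 FPKM in 23-NC cells (SD, n = 3). At day 2 it stood at 44.6 ± 1.01 FPKM in 23-CATA cells, 76.9 ± 4.72 FPKM in 23-Tet1 cells and 52.5 ± 1.40 FPKM in 23-NC cells.

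The direction of change from day 0 to day 6 in 23-Tet1 cells differed from that in 23-NC cells for single receptors. Fzd8 changed by 0.38 ± 0.09 in 23-Tet1 cells (adjusted p = 0.0099, and 0.061 without 23-Tet1 day 0 replicate 1) and by −1.19 ± 0.09 in 23-NC cells (1.7e-13), and the difference of these changes was 1.56 ± 0.13 (1.7e-11). Fzd9 changed by 0.74 ± 0.14 in 23-Tet1 cells (0.00024) and by −0.62 ± 0.14 in 23-NC cells (8.4e-05), with a difference of 1.36 ± 0.20 (1.9e-06). Both genes had been lower in 23-Tet1 cells at day 0.

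**Figure D4:**
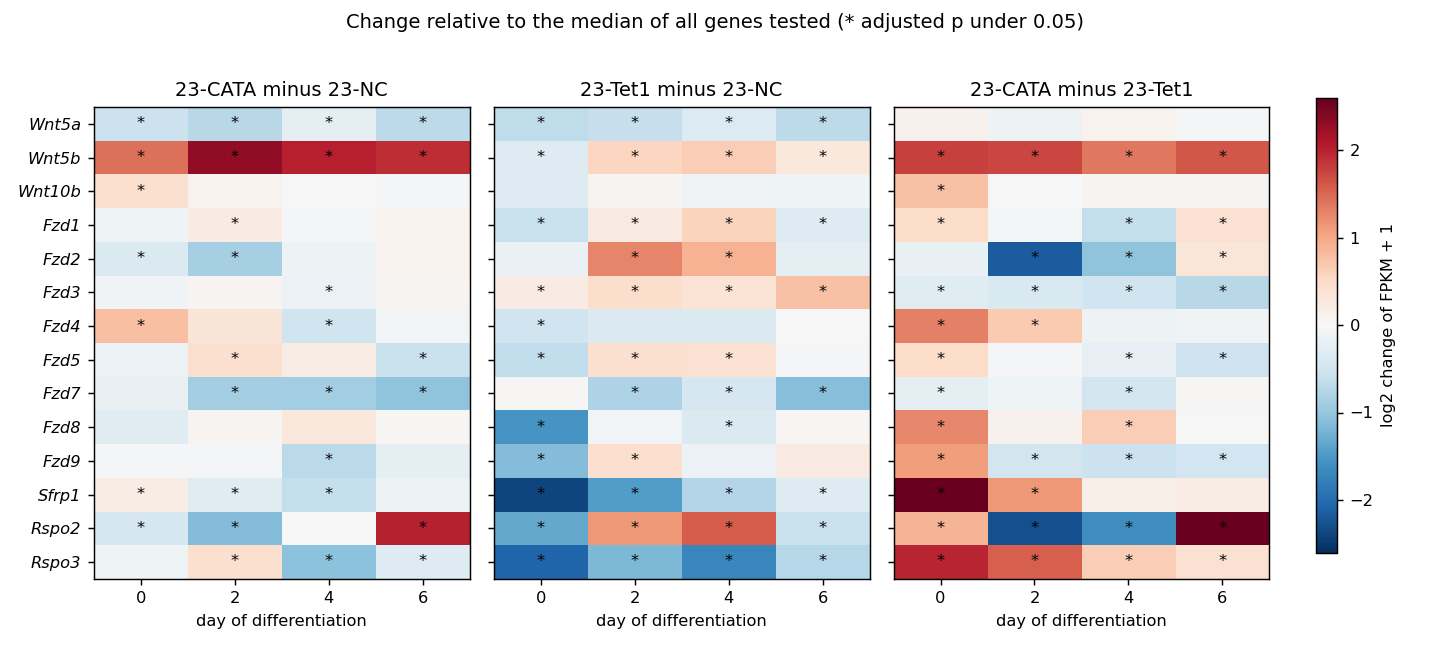
Change in log2(FPKM + 1), with the median over genes tested set to 0, for the 14 members of the second table, for 23-CATA minus 23-NC, 23-Tet1 minus 23-NC and 23-CATA minus 23-Tet1, by day, with red for higher in the population named first and an asterisk for adjusted p under 0.05. Wnt5b is red on all days for 23-CATA against both others, and Rspo2 in 23-Tet1 minus 23-NC is blue at days 0 and 6 and red at days 2 and 4.

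In the pathway lists of the second table, 10 of 12 secretion and co-receptor genes were lower in 23-CATA than in 23-NC cells at day 6, and 1 was higher, where 74.4% of all genes tested were called (36.4% lower and 38% higher). Porcn, the enzyme that attaches the lipid to WNT proteins, averaged 19.1 FPKM in 23-CATA cells and 146 FPKM in 23-NC cells at day 6 (change −2.89, adjusted p = 7.7e-21). Of 25 intracellular genes, 18 were lower and 2 higher in this comparison, and of 12 target and feedback genes 6 were lower and 5 higher. In 23-Tet1 against 23-NC cells at day 6, Wisp2, a WNT-induced matricellular gene, averaged 6.78 FPKM in 23-Tet1 cells and 34.9 FPKM in 23-NC cells (change −2.25, adjusted p = 5.0e-17), and Apcdd1 averaged 13.7 FPKM in 23-Tet1 cells and 1.02 FPKM in 23-NC cells (change 2.82, 1.6e-21).

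The members below the filter were compared only where they neared 1 FPKM. Of the 27 members below the filter in the first table, 5 reached at least 0.25 FPKM in some library, and 22 did not. The ligand Wnt9a, at most 1.04 FPKM in any library, averaged 0.14 ± 0.15 FPKM in Tet1-KO cells and 0.87 ± 0.15 FPKM in WT cells at day 6 (exact two-sided permutation p = 0.1, the smallest possible, n = 3 each). The other 4, Dkk2, Dkk3, Fzd3 and Wnt10b, peaked at 0.26, 0.52, 0.88 and 0.49 FPKM. Of the 27 in the second, 8 reached this level. Wnt6 averaged 0.91 ± 0.14 FPKM in 23-CATA cells, 0.08 ± 0.04 FPKM in 23-Tet1 cells and 0.91 ± 0.36 FPKM in 23-NC cells at day 0, and Dkk3, a divergent member of the Dkk family, averaged 0.66 ± 0.22, 0.24 ± 0.08 and 1.04 ± 0.29 FPKM in the same order (exact two-sided permutation p = 0.1 for 23-Tet1 against 23-NC cells in both, n = 3 each). Sfrp2 averaged 0.93 ± 0.03 FPKM in 23-CATA cells, 0.12 ± 0.09 FPKM in 23-Tet1 cells and 0.51 ± 0.20 FPKM in 23-NC cells at day 0. The ligand Wnt4 averaged 0.81 ± 0.12 FPKM in 23-CATA cells and 0.04 ± 0.03 FPKM in 23-NC cells at day 2 (exact two-sided permutation p = 0.1, n = 3 each). Sfrp5, Wnt2b, Wnt9a and Wnt11 peaked at 0.43, 0.77, 0.95 and 0.34 FPKM.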

How the data were processed

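RNA of 60 samples was measured in 2 tables of 24982 genes. The deposited values are FPKM, for which the submitters' processing notes name STAR 2.4.1a, RSEM and the mm10 build. Read counts were not used here. Depth, read from the step between low values, was 12.25 to 19.05 M fragments in 58 libraries and was unclear in 2, so the lowest values rest on few fragments. Tables were tested separately, since joint normalisation is not stated. Genes with at least 1 FPKM in 3 libraries were tested, 11911 and 12231 by table, on the log2(FPKM + 1) scale using limma 3.58.1 under R 4.3.3 (eBayes with a trend, all groups of a table in 1 fit, Benjamini-Hochberg adjustment over all genes tested), in 29 comparisons. The members, lists and tests were chosen with earlier results of these data known. Members that passed the filter are named, with values of every library for those reaching a group mean of 5 FPKM and changing by at least 1 on the log2 scale, and other genes come from the 3 pathway lists and markers. Some members with smaller values are also given in full. The fit was tested on simulated data. Groups follow sample titles, since the genotype tag of 11 23-Tet1 samples differs from the title. Same-numbered replicates correlated above 0.1 in every pair in 1 of 26 comparisons, so libraries were not treated as paired. Gene positions come from GENCODE M21 (GRCm38). Settings varied were the pseudocount (0.1 FPKM), the filter (none), the scaling (quantile or median-ratio), compared groups alone, a replicate block, library weights, leaving out each library, and a shared fit lacking Tet1-KO day 6 replicate 2. Python 3.11.15 (with pandas 2.3.3 and numpy 2.4.6) made the tables, scipy 1.17.1 the permutation tests and matplotlib 3.10.9 the figures.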

Additional observations from a re-analysis of the deposited data

Results flagged for a closer look

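For 22 members and populations the change from day 0 to day 6 differed from that in the control population by a test of the difference itself (limma, adjusted p under 0.05). The values below are changes on the log2(FPKM + 1) scale in the population named first less those in the second, with the median over genes tested set to 0.

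In Tet1-KO against WT cells the difference was 3.83 for Sfrp2, 2.93 for Sfrp1, 1.45 for Fzd9 and 1.04 for Wnt5a. Sfrp2 and Wnt5a had passed the filter through WT libraries alone, so the filter favoured these differences. It also favoured some of those below. Fzd3 passed through 23-Tet1 libraries alone, and Wnt10b through 23-CATA and 23-NC libraries of day 0 alone. Sfrp1 reached 1 FPKM in no 23-Tet1 library, and Wnt5b in no 23-NC library. Sfrp2, Sfrp1, Fzd9 and Wnt5a each had a lower level in Tet1-KO than in WT cells at day 0. The Wnt5a difference was not called with a pseudocount of 0.1 FPKM (adjusted p = 0.28) or with the compared groups alone (0.051).

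In 23-Tet1 against 23-NC cells the difference was 2.03 for Sfrp1, 1.56 for Fzd8, 1.36 for Fzd9, 1.33 for Rspo3, 0.73 for Rspo2, 0.61 for Wnt5b, 0.57 for Fzd5 and 0.54 for Fzd3, and −1.15 for Fzd7.

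In 23-CATA against 23-NC cells it was 2.45 for Rspo2, 0.49 for Wnt5b and 0.47 for Fzd2, and −0.85 for Fzd7, −0.84 for Fzd4, −0.45 for Wnt10b, −0.42 for Fzd5, −0.31 for Sfrp1 and −0.21 for Rspo3. Leaving out single libraries ended the calls of Fzd2 (adjusted p up to 0.089) and Rspo3 (0.086 without 23-NC day 6 replicate 1), and the Fzd5 difference was −0.23 without 23-NC day 0 replicate 1. The 2 contrasts with 23-NC cells share its libraries.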

How the results depend on the processing

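Over 406 member results and 5656 alternative values, 5281 kept direction and call, 201 lost the call, 167 gained it and 7 changed sign. In the second table no count of members called moved by over 1.5 times. In Tet1-KO against WT cells, 4 members were called at day 2, but 12 with library weights and 7 with the compared groups alone. At day 4 these settings gave 10 and 1 in place of 5, and at day 6 they gave 13 and 1 in place of 5. For Tet1-KO day 6 against day 0, median-ratio scaling gave 5 and the compared groups alone 1 in place of 9. For the difference of this change from WT, quantile normalisation gave 7, library weights 12 and a shared fit lacking Tet1-KO day 6 replicate 2 gave 7 in place of 4. Leaving out single libraries gave 5 to 9 for Tet1-KO against WT at day 0 (5 without Tet1-KO day 0 replicate 1), 0 to 6 at day 4 and 5 to 9 at day 6 (9 without Tet1-KO day 6 replicate 3), 5 to 9 for Tet1-KO day 6 against day 0 (5 without Tet1-KO day 0 replicate 3), and 4 to 7 for the difference from WT. Sign changed for Wnt5b at day 4 (0.10) and Fzd9 at day 6 (−0.46) in Tet1-KO against WT and Fzd4 in Tet1-KO day 6 against day 0 (0.13) with library weights, for Fzd9 at day 6 (−0.072, −0.12 and 0.27 without Tet1-KO day 6 replicates 3, 2 and 1) and Rspo3 in Tet1-KO day 6 against day 0 (0.068 without replicate 3 and −2.19 without replicate 2), and for Wnt5a in 23-CATA against 23-Tet1 at day 0 (−0.23) and Fzd5 in 23-CATA day 2 against day 0 (0.0012) with quantile normalisation. The cause was not tested. With a replicate block, Tet1-KO against WT gave 9, 5, 6 and 7 members at days 0, 2, 4 and 6, the difference from WT gave 5, and no other count changed. In 23-CATA against 23-NC at day 4, where same-numbered libraries correlated, the block gave 8, the unblocked count. FPKM carry no counts, so no interval for low members could be set.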
